A study of Mus musculus with 4 samples.

Results

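The transcription factors that drive or restrain epithelial to mesenchymal transition were examined in visceral mesothelium, taken from the omentum, and in parietal mesothelium, taken from the body wall. They are Snai1, Snai2, Zeb1, Zeb2, Twist1 and Twist2, which favour the mesenchymal state, and Grhl2 and Ovol1, which favour the epithelial one. A gene was taken from a probe (a set of short DNA probes read as 1 value) that the array's annotation pairs with exactly 1 gene symbol. All 8 of the 8 listed genes were found, each with 1 such probe, among 19938 genes measured. RNA was hybridized to 4 one-colour Affymetrix arrays, 2 of visceral and 2 of parietal mesothelium. All of the mice were untreated adults on the c57bl/6 background with the genotype Wt1-cre;Rosa26ReYFP. In such animals a Cre recombinase expressed with the mesothelial gene Wt1 turns on a yellow fluorescent reporter. The visceral sheet came from the omentum and the parietal one was teased off the body wall muscle. The study's methods describe no sorting of cells before RNA extraction. The paper states that the input was very largely mesothelial, as judged by this reporter. Arrays of 1 tissue are labelled as biological replicates, but which animals they came from is not given. The p-values therefore measure only how far these arrays spread, and their number limits the precision.

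In epithelial to mesenchymal transition, cells of an epithelial sheet lose their junctions and polarity and become motile. Snail proteins (Snai1 and Snai2) and ZEB proteins (Zeb1 and Zeb2) are zinc finger factors that bind short DNA motifs called E-boxes and repress epithelial genes such as E-cadherin, whereas Twist1 and Twist2 are basic helix-loop-helix (bHLH) factors that bind E-boxes as dimers. Grhl2 and Ovol1 belong to families that sustain epithelial genes and oppose ZEB factors. Mesothelium is an unusual epithelium in this respect. It forms a sheet with keratins, yet arises from mesoderm and carries vimentin and other mesenchymal proteins, and it gives rise to fibroblasts and vascular smooth muscle through this transition.

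Of the 8 factors, Zeb2 and Snai2 were higher in visceral mesothelium, Twist1 was higher in parietal mesothelium, and 5 did not pass the test. The test was limma, a linear model that pools the spread over all genes, run on log2 values of the array signal. To be called, a gene needed an adjusted p under 0.05 (Benjamini-Hochberg, over all genes) and a fold of at least 1.5. Of all genes, 9.60% were called, 5.22% as higher in visceral tissue and 4.39% as higher in parietal tissue, so that the 3 called factors make up 37.5% of a list of 8. The arrays of the tissues did not overlap for any of the 8 factors, which was also true of 56.3% of all genes. The median log2 difference of the 8 factors was 0.059, against 0.0015 for all genes, and the differences ran between -1.13 and 2.19. On leaving out each array in turn, Zeb2, Snai2 and Twist1 were still called, but such a fit has 1 array in a tissue, which is assumed to vary like those of the other tissue, so it is a weak check. The per-gene test of the study's methods, which takes each gene's spread from its own 4 values alone, called none of the 8 factors and none of the 19938 genes after adjustment. At an unadjusted p under 0.05 and the same fold, it called the same 3 factors, and the number of all genes called was 1582. The study itself reports probes that passed both of its thresholds after adjustment. Why none passed after adjustment here was not tested.

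**Figure D1:**
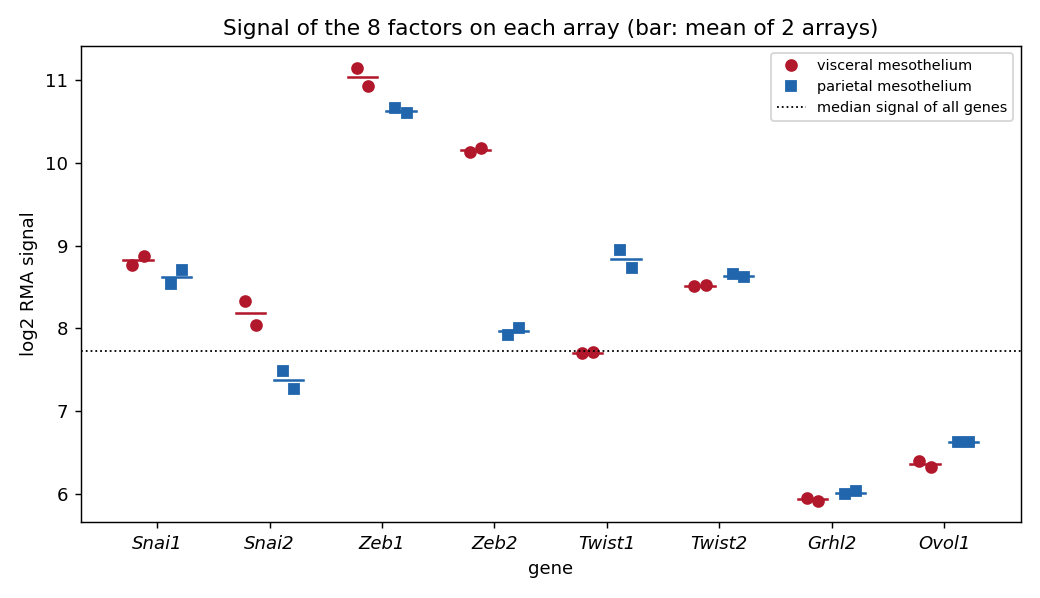
Log2 RMA signal (y axis) of the 8 factors (x axis) on each array. Visceral arrays are circles, parietal ones squares, with a bar at the mean of the 2 arrays and a dotted line at the median signal of all genes, 7.73. The visceral arrays of Zeb2 lie at 10.13 and 10.18 and its parietal arrays at 7.92 and 8.01, the widest gap, whereas Twist1 is the one called factor with its parietal arrays on top.

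Zeb2, a repressor of E-cadherin that is also expressed in leukocytes of the myeloid lineage, had the largest difference of the 8. Its log2 signal was 10.13 and 10.18 on the visceral arrays, against 7.92 and 8.01 on the parietal arrays. Both visceral arrays were high and both parietal arrays low, with a narrow spread within each tissue. The means were 10.15 ± 0.03 in visceral and 7.96 ± 0.06 in parietal mesothelium (SD, n = 2 arrays each). Zeb2 was thus 4.56-fold higher in visceral mesothelium, a log2 difference of 2.19 (95% interval 1.98 to 2.40, adjusted p = 1.21e-04 from limma). Without each array in turn the difference was 2.14 to 2.23. Of 18 macrophage markers 17 were also higher in visceral mesothelium, with a median log2 difference of 1.79, and their part in the difference of Zeb2 was not tested.

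Zeb1, its paralog, showed a smaller difference in the same direction. Its log2 signal was 11.15 and 10.93 on the visceral arrays, against 10.66 and 10.59 on the parietal arrays. The lower visceral array stood closer to the parietal arrays than the other one did. The log2 difference of 0.41 (95% interval 0.15 to 0.67) is a fold of 1.33, below the fold required, and the adjusted p was 0.0550 by limma. The tissue difference of Zeb2 exceeded that of Zeb1 by 1.78 on the log2 scale. An exact permutation test of the gap between both genes gave p = 0.333 (two-sided), which is the smallest that 4 arrays in 2 tissues allow.

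Zeb2os, annotated by its name as the opposite strand transcript at Zeb2, was looked up after the values of Zeb2 were seen. It had a log2 signal of 7.57 and 7.35 in visceral mesothelium, against 6.15 and 6.28 in parietal mesothelium. It was higher in visceral mesothelium by 1.24 (95% interval 0.97 to 1.52, adjusted p = 0.00152 from limma). Both transcripts at this locus were therefore higher in visceral mesothelium, each on its own probe. The parietal arrays of Zeb2os lay below 6.32, the 25th percentile of the mean signals of all genes.

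Of the Snail factors, Snai2 was higher in visceral mesothelium and Snai1 was not called. Snai2 (Slug), a repressor known from neural crest and mesoderm migration, had a log2 signal of 8.33 and 8.05 on the visceral arrays, against 7.48 and 7.27 on the parietal arrays. The arrays of a tissue spread more widely than for Zeb2, but the tissues did not overlap. The means were 8.19 ± 0.20 and 7.38 ± 0.15 (SD, n = 2 arrays each) in visceral and parietal mesothelium. The log2 difference was 0.81 (95% interval 0.48 to 1.14, adjusted p = 0.0130 from limma), a fold of 1.75. It ran from 0.67 to 0.95 on leaving out each array, with a highest adjusted p of 0.0469 by limma.

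Snai1, the Snail factor required for mesoderm formation in the mouse embryo, had a log2 signal of 8.77 and 8.87 in visceral mesothelium, against 8.54 and 8.71 in parietal mesothelium. The lower visceral array lay just above the higher parietal one. The log2 difference was 0.20 (95% interval -0.05 to 0.44, adjusted p = 0.269 from limma). The difference of Snai2 exceeded that of Snai1 by 0.61 on the log2 scale (exact permutation test, two-sided p = 0.333, again the smallest possible).

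Twist1 went the other way. This bHLH factor, needed for cranial mesenchyme and limb development, had a log2 signal of 7.70 and 7.71 on the visceral arrays, against 8.95 and 8.73 on the parietal arrays. The visceral arrays were almost equal and the parietal arrays spread more. The means were 7.71 ± 0.01 and 8.84 ± 0.15 (SD, n = 2 arrays each) in visceral and parietal mesothelium. The log2 difference was -1.13 (95% interval -1.38 to -0.88, adjusted p = 0.00162 from limma), or 2.19-fold lower in visceral mesothelium. It ran from -1.24 to -1.02 on leaving out each array. All 15 skeletal muscle markers were lower in visceral mesothelium as well, with a median log2 difference of -5.19, and their part in the difference of Twist1 was not tested.

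Twist2 (Dermo1), a close relative expressed in dermal and other connective tissue mesenchyme, had a log2 signal of 8.51 and 8.52 in visceral mesothelium, against 8.66 and 8.62 in parietal mesothelium. All 4 arrays lay close together. The log2 difference was -0.12 (95% interval -0.32 to 0.08, adjusted p = 0.406 from limma). Twist2 minus Twist1 shifted by 1.01 on the log2 scale between visceral and parietal mesothelium (exact permutation test, two-sided p = 0.333, the smallest possible). In each of the 3 paralog pairs compared, 1 gene was called and the other was not. With p-values that cannot fall below 0.333, these 3 tests cannot show that the paralogs differed.

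The epithelial factors gave low signals in both tissues. Grhl2, a grainyhead factor that activates E-cadherin and other junction genes, had a log2 signal of 5.95 and 5.92 in visceral mesothelium, against 6.00 and 6.04 in parietal mesothelium. All arrays were below 6.32, the 25th percentile of the mean signals of all genes. Its log2 difference was -0.08 (95% interval -0.28 to 0.12, adjusted p = 0.595 from limma). Ovol1 is a zinc finger factor that represses Zeb1 in cultured cells. It had 6.40 and 6.32 in visceral mesothelium, against 6.63 and 6.63 in parietal mesothelium. Its parietal arrays were equal to both decimals and above both visceral arrays. The log2 difference was -0.27 (95% interval -0.47 to -0.06, adjusted p = 0.0984 from limma), below the fold required. At signals this low an array compresses differences, and no detection call was used here.

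**Figure D2:**
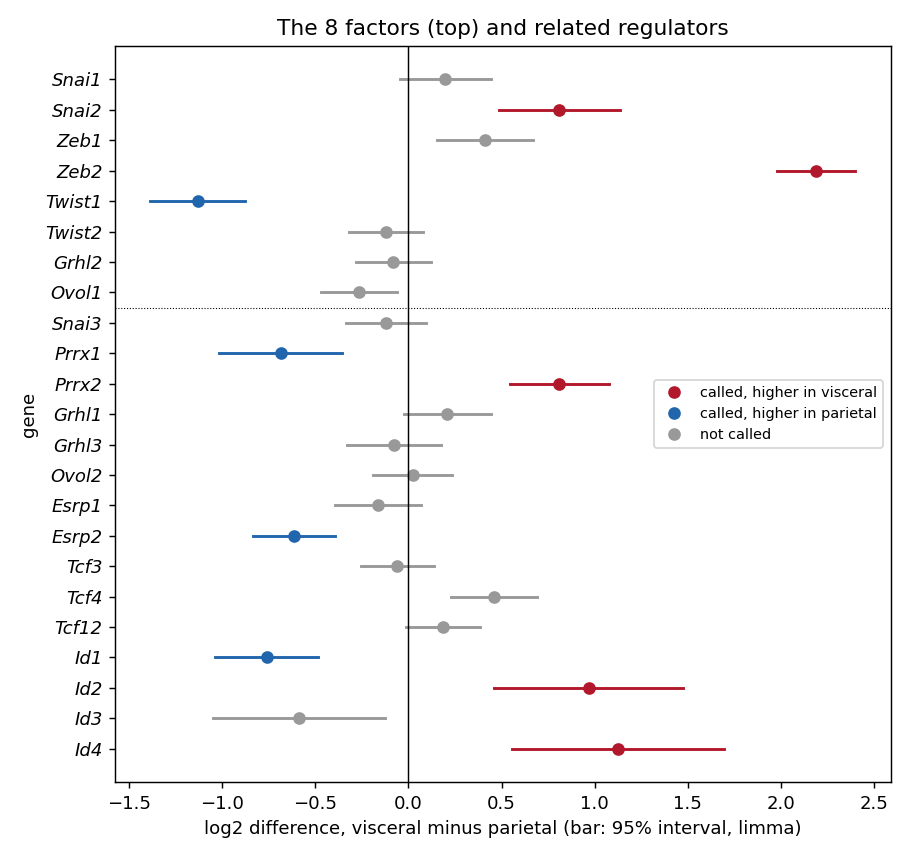
Log2 difference, visceral minus parietal (x axis), with 95% intervals from limma, of the 8 factors (above the dotted line) and of related regulators (below it). Red marks genes called higher in visceral and blue those called higher in parietal mesothelium, and the interval of Zeb2, 1.98 to 2.40, lies apart from those of the other 7 factors.

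For each called factor the genes with the most similar pattern were sought, by the Euclidean distance between the 4 log2 values of each gene after centring on its own mean, over 18615 named genes. The tissue difference dominates this measure. The genes nearest to Zeb2 were Dock2, an activator of the GTPase Rac, at a distance of 0.04, Cd33, a sialic acid binding lectin of the cell surface, at 0.09, and the chemokine Pf4 at 0.09. Dock2 had a log2 signal of 9.16 and 9.17 in visceral mesothelium, against 6.96 and 7.06 in parietal mesothelium. The genes nearest to Snai2 were Egfem1, at 0.07, the actin binding protein Lsp1, at 0.07, and the ligand Wnt4, at 0.08. Lsp1 lay at 11.02 and 10.81 in visceral, against 10.26 and 10.04 in parietal mesothelium. Of 18 macrophage markers 17 rose in visceral tissue as well, with a median log2 difference of 1.79. Their part in the neighbours of Zeb2 and Snai2 was not tested. The genes nearest to Twist1 were the fucose transporter Slc35c1, at 0.09, the kinase Prkg1, at 0.09, and the membrane skeleton protein Epb41l3, at 0.10. Prkg1 had 8.01 and 7.94 in visceral, against 9.15 and 9.04 in parietal mesothelium.

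The start regions of the called and related genes were read for the letters that Snail and ZEB proteins recognize. RefSeq start regions of the GRCm38.p6 assembly, 250 bases before to 50 after a gene's start, were searched on both strands for CACCT, the core bound by a ZEB zinc finger cluster, and for CACCTG, the E-box bound by Snail and ZEB proteins, which contains it. Of 32851 start regions, 51.9% held CACCT and 20.2% held CACCTG. Of the 8 factors, 4 had an entry, and CACCTG was found at Snai1 only. The regions of Snai1, Zeb2 (the first of 4 starts) and Twist1 are shown so that the called factors with an entry can be set beside the 1 factor that holds the E-box. CACCT, or CACCTG where the G follows, is in capitals, as AGGTG or CAGGTG where it lies on the other strand.
Snai1 (chr2:167537945-167538244, + strand): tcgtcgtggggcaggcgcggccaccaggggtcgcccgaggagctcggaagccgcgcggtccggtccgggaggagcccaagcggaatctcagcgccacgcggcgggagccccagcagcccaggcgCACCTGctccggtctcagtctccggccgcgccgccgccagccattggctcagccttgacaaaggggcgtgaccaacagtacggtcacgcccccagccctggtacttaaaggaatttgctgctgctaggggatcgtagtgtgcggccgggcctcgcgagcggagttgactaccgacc
Zeb2 (chr2:45117393-45117692, - strand): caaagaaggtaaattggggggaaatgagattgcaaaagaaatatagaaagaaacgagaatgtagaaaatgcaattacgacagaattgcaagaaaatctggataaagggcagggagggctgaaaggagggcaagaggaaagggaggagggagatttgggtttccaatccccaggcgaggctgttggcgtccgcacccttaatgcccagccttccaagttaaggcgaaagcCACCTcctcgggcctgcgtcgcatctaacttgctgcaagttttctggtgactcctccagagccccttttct
Twist1 (chr12:33957421-33957720, + strand): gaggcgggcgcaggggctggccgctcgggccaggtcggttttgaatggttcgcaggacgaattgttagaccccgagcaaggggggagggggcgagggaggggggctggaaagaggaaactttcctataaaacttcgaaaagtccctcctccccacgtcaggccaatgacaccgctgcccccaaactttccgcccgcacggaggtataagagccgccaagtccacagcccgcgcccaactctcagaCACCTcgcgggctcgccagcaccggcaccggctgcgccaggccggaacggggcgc
Snai1 held 1 CACCTG, and the regions shown of Zeb2 and Twist1 each held 1 CACCT without the closing G. Over its 4 starts Zeb2 held 1, 2, 1 and 0. The 4 start regions of Zeb2 and those of Twist1 and Twist2 held no CANNTG, the general E-box, which 72.3% of all start regions held. A match is a run of letters and not a bound site, and no match says only that the letters are not in this window.

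Of lists of epithelial and mesenchymal genes, 39 and 32 were measured, and the epithelial ones that were called were mostly higher in parietal mesothelium. Whether the 8 factors act on these genes in mesothelium was not tested. Of the 39 epithelial genes, 1 rose and 6 fell in visceral tissue, and 32 were not called. The called share was 17.9%, against 9.60% of all genes. Mesothelial markers moved the same way, with 8 of 16 lower in visceral tissue and a median log2 difference of -0.75, and their part in this count was not tested. Krt7, Krt8, Krt18 and Krt19 are in both lists, and of these Krt7 and Krt18 were called. The median log2 difference of the list was -0.12, against 0.0015 for all genes. P-cadherin, Cdh3, had the widest difference, with a log2 signal of 8.38 and 8.39 in visceral mesothelium, against 11.73 and 11.66 in parietal mesothelium (log2 difference -3.32, adjusted p = 3.73e-05 from limma). Spint2, an inhibitor of membrane serine proteases, differed by -1.83, keratin Krt7 by -1.78 and the polarity protein Patj by -0.69. Cldn1, a tight junction claudin, was the exception, at 11.55 and 11.39 in visceral mesothelium, against 8.37 and 9.49 in parietal mesothelium. Its log2 difference was 2.54 (adjusted p = 0.00703 from limma), and it was 1.98 without parietal replicate 1 and 3.10 without parietal replicate 2.

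E-cadherin, Cdh1, the best known target of Snail and ZEB proteins, had a log2 signal of 6.92 and 7.06 in visceral mesothelium, against 6.83 and 7.01 in parietal mesothelium. The tissues overlapped, and the log2 difference was 0.07 (adjusted p = 0.729 from limma). Without parietal replicate 1 it was -0.019. All 4 arrays lay below the median signal of all genes, 7.73. Epcam, another epithelial adhesion molecule, had 7.23 and 6.50 in visceral mesothelium, against 7.67 and 7.17 in parietal mesothelium. These overlapped too (log2 difference -0.56, adjusted p = 0.265 from limma).

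The start regions of 3 epithelial genes that were called higher in parietal mesothelium and hold CACCTG are shown, with capitals as above.
Krt7 (chr15:101412153-101412452, + strand): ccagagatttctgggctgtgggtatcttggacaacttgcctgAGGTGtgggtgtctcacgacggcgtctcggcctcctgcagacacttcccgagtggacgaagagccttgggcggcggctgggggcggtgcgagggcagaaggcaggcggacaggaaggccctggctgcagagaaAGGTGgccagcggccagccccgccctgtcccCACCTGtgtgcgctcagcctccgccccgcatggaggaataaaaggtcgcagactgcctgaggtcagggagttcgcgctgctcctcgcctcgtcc
Krt18 (chr15:102027966-102028265, + strand): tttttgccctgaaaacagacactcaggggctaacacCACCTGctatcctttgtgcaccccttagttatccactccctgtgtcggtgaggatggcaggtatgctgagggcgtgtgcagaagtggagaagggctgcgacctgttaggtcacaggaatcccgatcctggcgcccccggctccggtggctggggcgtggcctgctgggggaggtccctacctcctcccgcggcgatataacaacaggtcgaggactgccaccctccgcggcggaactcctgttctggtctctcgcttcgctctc
Spint2 (chr7:29281928-29282227, - strand): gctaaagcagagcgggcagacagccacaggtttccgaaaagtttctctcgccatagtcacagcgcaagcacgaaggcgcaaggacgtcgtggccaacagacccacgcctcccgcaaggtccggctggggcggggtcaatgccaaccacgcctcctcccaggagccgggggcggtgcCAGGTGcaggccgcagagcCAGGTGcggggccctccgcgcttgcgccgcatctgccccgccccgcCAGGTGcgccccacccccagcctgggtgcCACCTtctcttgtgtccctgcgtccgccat
CACCTG, or its reverse complement CAGGTG, was present 3 times at Spint2 and 1 time at each keratin. Of the 25 listed epithelial genes with an entry, 20 held CACCTG in at least 1 start region, or 24 of their 33 start regions. Of the 18 mesenchymal genes with an entry, 1 held it, or 1 of 21 start regions. High shares were not particular to epithelial genes, since 5 of 6 B cell, 5 of 8 T cell and 5 of 9 adipocyte markers with an entry held it as well. Of the 20 epithelial genes with CACCTG, 4 were called, against 17.9% of the whole epithelial list and 9.60% of all genes. All 4 were lower in visceral tissue (Patj, Krt7, Krt18 and Spint2). The median over the 20 was -0.14. Of the 5 epithelial genes with an entry but without the motif, 1 was called, Cldn1, higher in visceral mesothelium, with a median of 0.06. The called share was thus the same with and without the motif. Cdh1 and Cdh3 had no entry and are in neither group. These shares describe the lists and were not tested, and base composition was not matched.

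Mesenchymal genes were called in both directions. Of the 32 measured, 5 rose in visceral mesothelium and 8 fell there, or 40.6% called against 9.60% of all genes. Pdgfra, Dcn and Lum are also in the fibroblast list, and Acta2 and Tagln in the smooth muscle list. Of these shared genes, Tagln was called as higher in visceral and Lum as higher in parietal mesothelium. The part of fibroblasts and smooth muscle in this count was not tested. The list had a median log2 difference of -0.078. Fibronectin, Fn1, had a log2 signal of 13.23 and 12.94 in visceral mesothelium, against 11.35 and 11.29 in parietal mesothelium (log2 difference 1.77, adjusted p = 6.13e-04 from limma). The PDGF receptor Pdgfrb, the collagen receptor Ddr2 and the gelatinase Mmp9 were also higher in visceral mesothelium, by 1.02, 0.97 and 0.72. Of those that fell, the neural cell adhesion molecule Ncam1 differed by -1.34, the protease Fap by -1.25, the surface glycoprotein Thy1 by -0.87 and the collagen chain Col1a2 by -0.85. Vimentin, Vim, the intermediate filament of mesenchymal cells, had 13.94 and 13.98 in visceral mesothelium, against 13.86 and 13.79 in parietal mesothelium, a log2 difference of 0.14 (adjusted p = 0.361 from limma). N-cadherin, Cdh2, had 6.96 and 6.97 in visceral mesothelium, against 6.67 and 6.39 in parietal mesothelium, a log2 difference of 0.43 that did not pass (adjusted p = 0.0613 from limma). Without visceral replicate 2 Col1a2 was not called, at -0.84 (adjusted p = 0.0581 from limma).

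**Figure D3:**
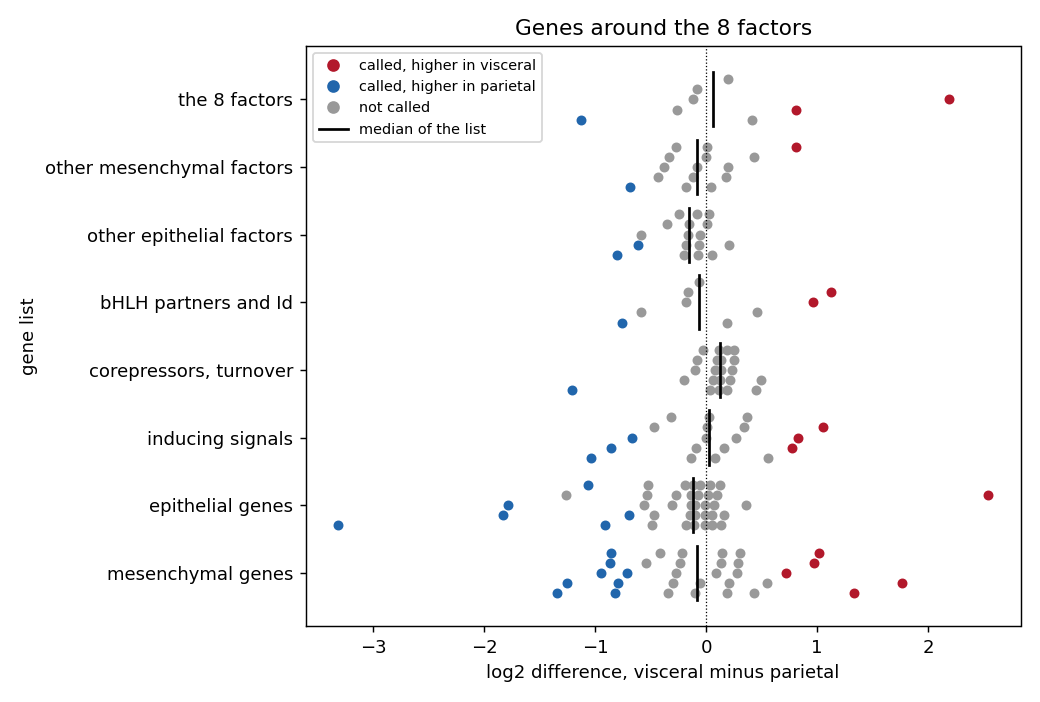
Log2 difference, visceral minus parietal (x axis), for 8 gene lists (y axis), 1 point a gene and a black line at each list's median. Red points were called as higher in visceral tissue, blue ones as higher in parietal tissue, and grey ones were not called. Zeb2, at 2.19, is the rightmost of the 8 factors, and 6 of the 7 called epithelial genes lie to the left.

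Of 15 other measured factors that favour the mesenchymal state, 1 was higher in each tissue, or 13.3% called against 9.60% of all genes. They are the paired homeobox paralogs Prrx1 and Prrx2. Prrx2 had a log2 signal of 8.73 and 8.50 in visceral mesothelium, against 7.83 and 7.78 in parietal mesothelium (log2 difference 0.81, adjusted p = 0.00632 from limma). Prrx1 had 8.65 and 8.97 in visceral mesothelium, against 9.41 and 9.58 in parietal mesothelium (log2 difference -0.68, adjusted p = 0.0240 from limma). These paralogs therefore moved in opposite directions. Prrx1 was not called without visceral replicate 1 (-0.52) or without parietal replicate 2 (-0.60). Snai3, another Snail factor, differed by -0.12 and did not pass.

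Of 17 measured factors of the epithelial state, 2 fell and none rose in visceral tissue, or 11.8% called, near the 9.60% of all genes. Of the 17, 3 lay above the median signal. Klf4, a zinc finger factor of barrier epithelia, had a log2 signal of 9.24 and 9.09 in visceral mesothelium, against 10.17 and 9.77 in parietal mesothelium (log2 difference -0.81, adjusted p = 0.0194 from limma). Esrp2, a splicing regulator of epithelial cells, differed by -0.62 (adjusted p = 0.00855 from limma), at 6.97 and 7.09 in visceral mesothelium, against 7.61 and 7.68 in parietal mesothelium. Its relative Esrp1, at -0.16, and the relatives of Grhl2 and Ovol1, namely Grhl1 at 0.21, Grhl3 at -0.08 and Ovol2 at 0.02, did not pass. The sign was not stable for Grhl3, at 0.027 without visceral replicate 2, nor for Ovol2, at -0.032 without parietal replicate 1. Klf4 was not called without visceral replicate 1 (-0.88) or replicate 2 (-0.73), and Esrp2 was not called without visceral replicate 1 (-0.56) or parietal replicate 2 (-0.58). Leaving out visceral replicate 1 took the count of 2 to 0, and leaving out visceral replicate 2 or parietal replicate 2 took it to 1.

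Twist proteins pair with E proteins, and Id proteins lack a DNA binding region and take E proteins away. Among the 9 bHLH partners measured 3 were called (33.3%, against 9.60% of all genes), and the E proteins were not. Tcf4, at 10.40 and 10.56 in visceral mesothelium, against 10.00 and 10.05 in parietal mesothelium, differed by 0.46 (adjusted p = 0.0279 from limma), below the fold required. Tcf12 differed by 0.18 and Tcf3 by -0.06. The Id genes were called in opposite directions. Id4 was higher in visceral mesothelium by 1.12 (adjusted p = 0.0279 from limma) and Id2 by 0.97 (adjusted p = 0.0318 from limma), whereas Id1, called as lower there, differed by -0.76 (adjusted p = 0.00934 from limma). Id2 had 10.36 and 10.34 in visceral mesothelium, against 9.06 and 9.70 in parietal mesothelium, and was not called without visceral replicate 1 or 2 (adjusted p = 0.117 and 0.115 by limma). Id3 differed by -0.59 and did not pass, but was called without parietal replicate 1 (-0.87, adjusted p = 0.00426 from limma).

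Of 22 measured genes that act on Snail protein turnover or serve as corepressors, 1 was called (4.55%, against 9.60% of all genes). It was Ajuba, a LIM protein that binds Snail, at 8.20 and 8.35 in visceral mesothelium, against 9.34 and 9.62 in parietal mesothelium (log2 difference -1.21, adjusted p = 0.00266 from limma). The list's median was 0.12. The other 21 ran between -0.20 and 0.50 and included the ZEB corepressor Ctbp1 at 0.25. Without visceral replicate 2 or parietal replicate 1, 2 of the 22 were called.

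Of 19 measured genes of the signals that induce these factors, or that restrain such signals, 3 rose and 3 fell in visceral tissue, or 31.6% called against 9.60% of all genes. Without visceral replicate 2 the counts were 3 and 1. The growth factor Hgf was higher in visceral mesothelium by 1.06, the receptor Tgfbr1 by 0.83 and the ligand Tgfb3 by 0.77. Of those that fell, the ligand Pdgfa differed by -1.04, the Hgf receptor Met by -0.86 and Skil, an inhibitor of TGF-beta signaling, by -0.67. Hgf had a log2 signal of 6.64 and 6.89 in visceral mesothelium, against 5.74 and 5.68 in parietal mesothelium, and Met had 10.06 and 9.47 in visceral mesothelium, against 10.65 and 10.60 in parietal mesothelium. The ligand and its receptor thus differed in opposite directions. The mean signal of Hgf, 6.24, lay below 6.32, the 25th percentile of all genes. Hgf was therefore filtered out under both filters on signal. Without visceral replicate 2, Met, Skil and Tgfb3 were not called, and Met was also not called without parietal replicate 1 or 2.

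MicroRNAs of the miR-200 family repress Zeb1 and Zeb2 through sites in their transcripts, and ZEB proteins repress the miR-200 genes in turn. Their mature sequences are shown because the letters in capitals, the seed (bases 2 to 8), define which transcripts each can bind. From RefSeq (GRCm38.p6), miR-200b, miR-200c and miR-429 share one seed, miR-200a and miR-141 a second that differs from it, and miR-205, which also represses ZEB transcripts, has its own.
mmu-miR-200b-3p (chr4:156055685-156055706, - strand): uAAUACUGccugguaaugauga
mmu-miR-200c-3p (chr6:124718324-124718346, - strand): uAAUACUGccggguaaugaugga
mmu-miR-429-3p (chr4:156053916-156053937, - strand): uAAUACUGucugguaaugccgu
mmu-miR-200a-3p (chr4:156054911-156054932, - strand): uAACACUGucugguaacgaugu
mmu-miR-141-3p (chr6:124717917-124717938, - strand): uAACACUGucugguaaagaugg
mmu-miR-205-5p (chr1:193507503-193507524, - strand): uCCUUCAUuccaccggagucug
The probes for these loci detect the gene's primary or hairpin RNA and not the mature microRNA as such. Of 8 listed microRNA loci 7 were measured, none was called, and all 7 lay below the median signal. Mir200b had a log2 signal of 6.03 and 5.98 in visceral mesothelium, against 6.11 and 6.21 in parietal mesothelium, and Mir200c had 6.27 and 6.26 in visceral mesothelium, against 6.41 and 6.37 in parietal mesothelium. Their differences of -0.15 and -0.13 did not pass, and neither did those of Mir200a (0.07), Mir141 (-0.07) and Mir205 (-0.07). Mir34a, the locus of a microRNA that targets Snai1, differed by 0.36 (adjusted p = 0.0492 from limma), below the fold required.

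Markers of other cell types moved with the same tissues. In bulk samples such as these, fewer cells of a type and less RNA per cell cannot be told apart. Of 18 macrophage markers, 17 rose in visceral tissue and none fell. Their summed signal, as log2 of the sum, was 14.89 and 14.97 in visceral mesothelium, against 12.97 and 13.14 in parietal mesothelium. The defining markers Adgre1, Csf1r and Cd68 differed by 1.63, 1.07 and 1.63. Csf1r still had a log2 signal of 9.99 and 9.92 in parietal mesothelium. Of 10 mast cell markers 8 and of 9 B cell markers 5 were higher in visceral mesothelium, with summed signals of 13.19 and 12.83 in visceral, against 10.16 and 10.30 in parietal mesothelium for mast cells, and of 11.06 and 11.41 in visceral, against 9.51 and 9.57 in parietal mesothelium for B cells. Their part in the differences of Zeb2 and Snai2 was not tested.

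In the other direction, all 15 skeletal muscle markers fell in visceral tissue. Their summed signal was 10.91 and 10.95 in visceral mesothelium, against 16.12 and 16.47 in parietal mesothelium. Of 10 satellite cell markers 1 rose and none fell in visceral tissue, or 10% called against 9.60% of all genes. The median log2 difference of these markers was -0.21. Of 13 fibroblast markers 5 rose and 4 fell in visceral tissue, with a summed signal of 16.02 and 16.06 in visceral, against 15.91 and 15.89 in parietal mesothelium. Their part in the difference of Twist1 was not tested. Of 10 smooth muscle markers, 6 rose and 1 fell in visceral tissue. Endothelial markers were called in 2 of 14 cases, both higher in parietal mesothelium, T cell markers in 2 of 9, both higher in visceral mesothelium, and adipocyte and Schwann cell markers in none of 9 and 8. Parietal replicate 1 stood apart on some adipocyte markers, with Retn at 9.46 and Adipoq at 7.50 on that array, against 7.46 and 5.96 on parietal replicate 2. Without parietal replicate 1 the same 3 of the 8 factors were called.

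The tissue label was checked against 16 mesothelial markers. The defining markers Msln, Wt1 and Upk3b were present in both tissues. Msln had a log2 signal of 10.70 and 10.82 in visceral mesothelium, against 12.96 and 12.83 in parietal mesothelium. Wt1 had 12.26 and 12.39 in visceral mesothelium, against 11.54 and 11.42 in parietal mesothelium, and Upk3b 13.59 and 13.65 in visceral mesothelium, against 13.79 and 13.84 in parietal mesothelium. Among the 16 markers 2 rose and 8 fell in visceral tissue, with a median log2 difference of -0.75, and 15 lay above the median signal. Krt7 and Krt18, 2 of the 8 that fell, are also among the 6 epithelial genes that fell. Calb2, the 1 marker below the median signal, was not called. It lay at 5.64 and 5.54 in visceral mesothelium, against 5.51 and 5.39 in parietal mesothelium.

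**Figure D4:**
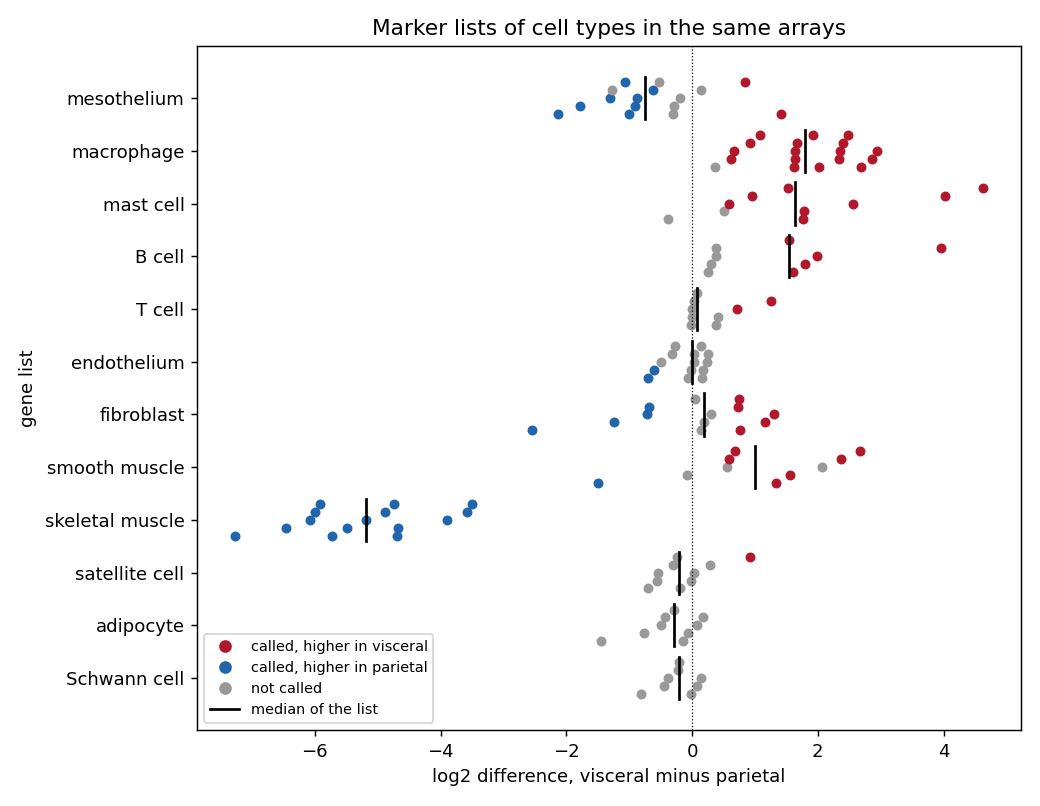
Log2 difference, visceral minus parietal (x axis), for markers of 12 cell types (y axis), with colours and lines as in the plot of the pathway lists. The 17 called macrophage markers lie between 0.62 and 2.94, where Zeb2 stands at 2.19, and all 15 skeletal muscle markers lie to the left.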

How the data were processed

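Mouse Gene ST arrays (Affymetrix) measured RNA of visceral and parietal mesothelium, with 2 arrays for each. The authors deposited log2 values made with RMA, for which the submitters' processing notes give Partek version 6.6. The array library version is not given in the sources used here. RMA equalizes the distributions of the arrays, so a change shared by most genes would not be seen.

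The log2 values were used as deposited. Of 35556 probes, 21789 had 1 symbol in the platform annotation, 1621 several and 12146 none. Symbols were checked by gene identifier against RefSeq (GRCm38.p6), where 21698 matched and none changed. For 999 genes with several probes the one with the highest mean was taken. A linear model of visceral minus parietal mesothelium was fitted to 19938 genes on all 4 arrays (limma 3.58.1, R 4.3.3). The code was tested on simulated data.

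Members and lists were chosen with earlier results of these data known. Named genes are the 8 factors, up to 4 called genes in each direction of a pathway list, a fixed set of relatives, the 3 nearest genes of each called factor, and the defining markers. Genes named outside this rule are Zeb2os, the microRNA loci and genes given to illustrate a list. The latter are Ctbp1, Krt8, Krt18, Krt19, Dcn, Lum, Calb2, Retn and Adipoq. All genes named outside this rule were chosen after their values were seen. The alternatives were 18 other settings of test, threshold, prior, scaling, filter, probe, block and arrays. No scan date was used.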

Additional observations from a re-analysis of the deposited data

How the results depend on the processing

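Over 18 alternatives the differences of the 8 factors kept their direction in all 141 values, and 137 also stayed on the same side of the threshold. The 4 that did not were Zeb2 (2.19), Snai2 (0.81) and Twist1 (-1.13) under the per-gene test of the study's methods after adjustment (adjusted p = 0.108, 0.246 and 0.159) and Snai2 (0.81) under a fold of at least 2. Grhl2 under both filters on signal and Ovol1 under the stricter one gave no value, as they were filtered out. Without each array in turn the differences ran from 2.14 to 2.23 for Zeb2, 0.67 to 0.95 for Snai2, -1.24 to -1.02 for Twist1, 0.30 to 0.52 for Zeb1, 0.11 to 0.28 for Snai1, -0.14 to -0.10 for Twist2, -0.10 to -0.06 for Grhl2 and -0.31 to -0.23 for Ovol1.

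The count of all genes called was 1915, 0 by the methods' per-gene test after adjustment, 978 at a fold of at least 2 and 1696 to 2095 without each array. After adjustment that test also called 0 of the factors and 0 genes of every pathway list. At a fold of at least 2 the counts were 0 for the other mesenchymal factors and 0 for the epithelial factors, 1 for the bHLH partners, 2 for the inducing signals and 5 for the mesenchymal genes. Without adjustment the methods' per-gene test called 1, 1 and 1 of the first 3 of these lists and 8 mesenchymal genes, and with all probes in the fit the counts were also 1, 1, 1 and 8. Above the median signal 1 epithelial factor was called, of 3 tested. Without each array the counts were 3 for the 8 factors, 1 to 3 for the mesenchymal factors, 0 to 3 for the epithelial factors, 2 to 4 for the bHLH partners, 1 to 2 for corepressors and turnover, 4 to 6 for inducing signals, 7 to 8 for epithelial and 9 to 14 for mesenchymal genes. The cause was not tested. Among 40 other named genes, 633 of 706 values kept direction and side, 68 lost and 2 gained the call, and 3 changed sign, all in genes that were not called: Cdh1 (-0.019 without parietal replicate 1), Grhl3 (0.027 without visceral replicate 2) and Ovol2 (-0.032 without parietal replicate 1). Without each array these ran from -0.019 to 0.16, -0.19 to 0.027 and -0.032 to 0.078.

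The labels number the replicates of both tissues without saying that a number marks a shared animal. The deviations of same-numbered arrays from their tissue means correlated at 0.27 across probes. With the replicate block the count of all genes called was 2008, and the 3 called factors were called too. The arrays per tissue and dim signals limit what could be detected.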
